A study of Mus musculus with 3 samples.

Results

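Keratin-high and keratin-low wells are the ends of the range of Krt8 and Krt18 transcripts among single mouse embryonic stem cells. Wells with at least 1000 detected genes, under 20% of UMIs (unique molecular identifiers, each standing for 1 captured RNA molecule) from the mitochondrial genome and at least 12000 gene UMIs were scored. The score was the sum of Krt8 and Krt18 UMIs over all gene UMIs of the well. The keratin-high class was the top 10% of scores within each plate and cell type, and the keratin-low class held the wells with no UMI of either gene. Of 4610 wells of the 3 cell types, 3368 were scored, 333 were keratin-high, 95 were keratin-low and 2940 lay between. Krt8, Krt18 and the depth of a well entered this choice, so their values describe the classes and were not tested.

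All cells were blastocyst-derived embryonic stem cells carrying loxP-flanked Mll1 (Mll1fl/fl) and Cre-ER TM, a tamoxifen-inducible recombinase, on C57BL/6J. Cell type 1 was the Mll1fl/fl control, cell type 2 was Mll1-/- (called deleted here) and cell type 3 had Mll1 inhibition (called inhibited). Mll1, now Kmt2a, encodes a histone H3 lysine 4 methyltransferase. The labels name no inhibitor, dose, time, deleted exon or promoter of the recombinase. They do not say whether a type is 1 clone. Each of 3 plates held all 3 types, which gave 9 pairs of a high and a low class, each pair from 1 plate and 1 type. Nothing says that the plates were separate cultures, and 3 of the 9 pairs share each plate, so p-values reflect only how these plates vary, which can be technical variation.

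Keratins are the intermediate filament proteins of epithelia. Krt8, a type II keratin, and Krt18, a type I keratin, pair into the filaments of simple epithelia. They are among the first keratins made in the mouse embryo, where they mark the trophectoderm, the outer epithelium of the blastocyst that forms the placenta. Embryonic stem cells correspond to the inner, pluripotent part of the blastocyst, and differentiating cells in their cultures can switch these keratins on.

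Krt8 (ENSMUSG00000049382; GRCm38/mm10 chr15:101996698-102004482, minus strand) and Krt18 (ENSMUSG00000023043; chr15:102028180-102032027, plus strand) are neighbouring genes transcribed away from each other. The bases just before their starts are shown because both genes define the classes, together with those of Anxa2, the gene with the smallest adjusted p at equal depth. They are RefSeq windows (GRCm38.p6), cut to the part before the start in both RefSeq and GENCODE, at chr15:102004483-102004592 (minus strand), chr15:102027966-102028179 (plus strand) and chr9:69453433-69453619 (plus strand). Capitals mark matches to an AP-1 motif (TGANTCA) or a GC box (GGGCGG or its reverse complement).
Krt8: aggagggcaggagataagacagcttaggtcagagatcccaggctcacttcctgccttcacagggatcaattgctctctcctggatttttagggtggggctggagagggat
Krt18: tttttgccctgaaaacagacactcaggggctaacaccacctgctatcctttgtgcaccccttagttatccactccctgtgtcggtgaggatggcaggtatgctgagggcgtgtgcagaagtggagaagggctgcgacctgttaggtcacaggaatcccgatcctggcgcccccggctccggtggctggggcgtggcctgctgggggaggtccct
Anxa2: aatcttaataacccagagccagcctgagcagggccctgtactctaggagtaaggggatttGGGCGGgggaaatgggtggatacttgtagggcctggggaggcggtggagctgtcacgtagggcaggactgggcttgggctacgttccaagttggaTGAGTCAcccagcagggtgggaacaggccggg
Both strands of the 250 bases before the start were searched for the AP-1 motif, the TEAD motif GGAATG, the GC box and the CArG box of serum response factor. The windows of Krt8 and Krt18 held none of the 4. The Anxa2 window held 1 AP-1 match and 3 GC boxes, of which 2 lie nearer the start than the stretch shown. Windows were found for 11 of the 15 genes with the largest rises and for 13 of the 15 with the largest falls. AP-1 matches were in 0 of 11 and 2 of 13, against 6.82% of 27025 windows. TEAD matches were in 1 and 1 (12.6% of all windows), GC boxes in 5 and 7 (33.1%), and CArG boxes in 1 and 0 (1.39%). These are letters in a window and no measure of binding.

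The classes were of uneven size and depth. As counted, pairs held 27 to 50 keratin-high wells but only 1 to 27 keratin-low wells, and plate 3 deleted cells gave a single keratin-low well of 13009 UMIs. Median depth was 45952.5 to 97801 UMIs in the high classes and 13009 to 37413 in the low classes, higher in the high class in 9 of 9 pairs. A shallow well more easily shows no keratin UMI. The wells were therefore also thinned at random to 12000 UMIs each and classed again, which is called equal depth here. That gave 341 keratin-high, 676 keratin-low and 2351 intermediate wells, with 36 to 120 low wells a pair. It kept 326 of the 333 high wells and all 95 low wells. Before thinning, the low wells of this classing held medians of 53041 to 120845 UMIs and the high wells 46841 to 97801, higher in the high class in 3 of 9 pairs.

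**Figure D1:**
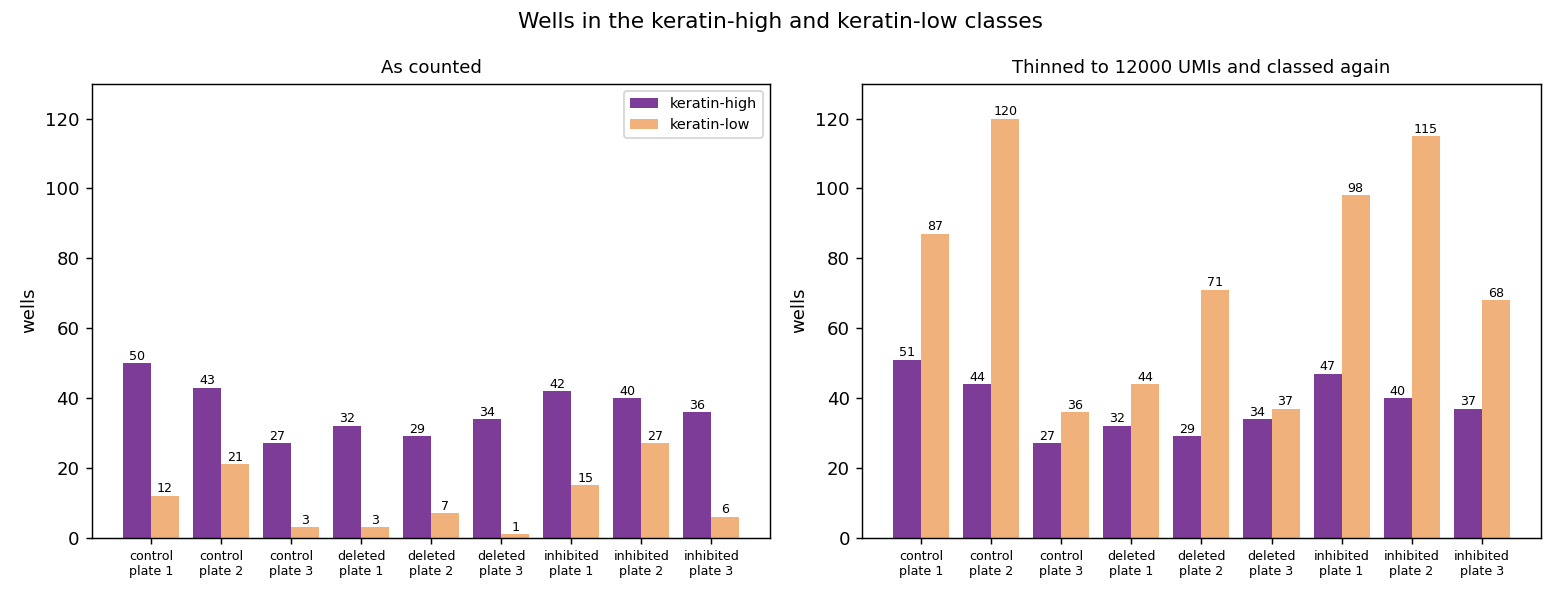
Number of keratin-high and keratin-low wells (y axis) in each cell type and plate (x axis), as counted (left) and after thinning every well to 12000 UMIs and classing again (right). The low class grows from 1 to 27 wells a pair to 36 to 120 wells, while the high class stays at 27 to 51 wells.

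The lowest high-class scores depended on the cell type. As counted they were 1734, 1838 and 1746 keratin UMIs per 1000000 in control cells on plates 1, 2 and 3, against 1721, 1822 and 1716 for the highest score left outside. In deleted cells the edges were 2282, 4562 and 3493 inside and 1988, 4156 and 3309 outside. In inhibited cells they were 1189, 1431 and 1572 inside and 1183, 1383 and 1420 outside. The values run on across each edge, so the classes are ranges of a continuous score. At equal depth the share of wells without a keratin UMI was lowest in deleted and highest in inhibited cells within each of the 3 plates. Control wells gave shares of 17.3, 27.3 and 13%, deleted wells 13.5, 24.1 and 10.7% and inhibited wells 23.2, 28.7 and 18.9%. In 15 wells without a cell, 2719 gene UMIs were counted in all, 3 of them Krt8 and 0 Krt18.

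Krt18 was at 2778 to 7394 CPM (median 5380.0) in the 9 keratin-high sums at equal depth, and Krt8 at 705 to 1717 CPM (median 1408); both are 0 in the low sums by the rule. CPM are UMIs per 1000000, with all 45 keratin genes left out of the scaling and of every test. Each gene followed the other when the wells were chosen on 1 of them alone. For those values alone, CPM are over all gene UMIs with the keratins included, without further scaling. Chosen on Krt8, the high wells held a median of 4271 CPM of Krt18 and the low wells 145 CPM. Chosen on Krt18, they held 1236 and 46.9 CPM of Krt8, with the high class above the low in 9 of 9 pairs both times. Further simple epithelial keratins went the same way. Krt19 was at 78.8 to 183 CPM (median 121) in high and 2.37 to 40.8 CPM (median 16.5) in low sums, and Krt7 at 28.7 to 229 CPM (median 177) against 0 to 17.2 CPM (median 2.44). The groups did not overlap for either gene. Krt10, a keratin of stratified epithelium, was at 5.73 to 29.2 CPM (median 17.7) against 7.11 to 29.3 CPM (median 19), higher in 4 of 9 pairs, and Krt42 at 0 to 53.2 CPM (median 4.78) against 2.04 to 24.7 CPM (median 14.4), higher in 3 of 9.

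Outside the keratins, the wells differed in many genes. As counted, 837 of 7947 genes tested (10.5%) passed an adjusted p of 0.05, 695 higher (8.75%) and 142 lower (1.79%) in keratin-high wells (edgeR quasi-likelihood test over the 9 pairs, Benjamini-Hochberg). At equal depth 1910 of 5631 did (33.9%), 1018 higher (18.1%) and 892 lower (15.8%). All counts of list members called below are to be read against these shares of all genes tested. Of 5629 genes tested both ways, 618 were called both ways, all in the same direction. They were 93.4% of the as-counted and 32.4% of the equal-depth calls among these genes. Both fits share 326 of the 333 as-counted high wells and all 95 as-counted low wells. Their agreement in direction is therefore not an independent repeat. Differences below are log2 values, keratin-high minus keratin-low, with an SE worked back from the test. This SE is the size of the difference over the square root of the test's F value. A value given alone is at equal depth, where it passed the test. The median gene stood at 0.25 on the log2 scale as counted and at -0.02 at equal depth, so the as-counted direction counts carry a general offset of that size. Without plate 2 the as-counted number was 367, and without the 3 pairs of under 5 low wells it was 613 (449 higher, 164 lower). Without the plate 3 deleted pair it was 813.

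Set against the wells between the classes in place of the keratin-low wells, keratin-high wells differed in 3068 of 13227 genes as counted (23.2%), 1483 higher (11.2%) and 1585 lower (12%). At equal depth it was 2047 of 8657 (23.6%), 1072 higher (12.4%) and 975 lower (11.3%). These comparisons share the keratin-high sums with those above.

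**Figure D2:**
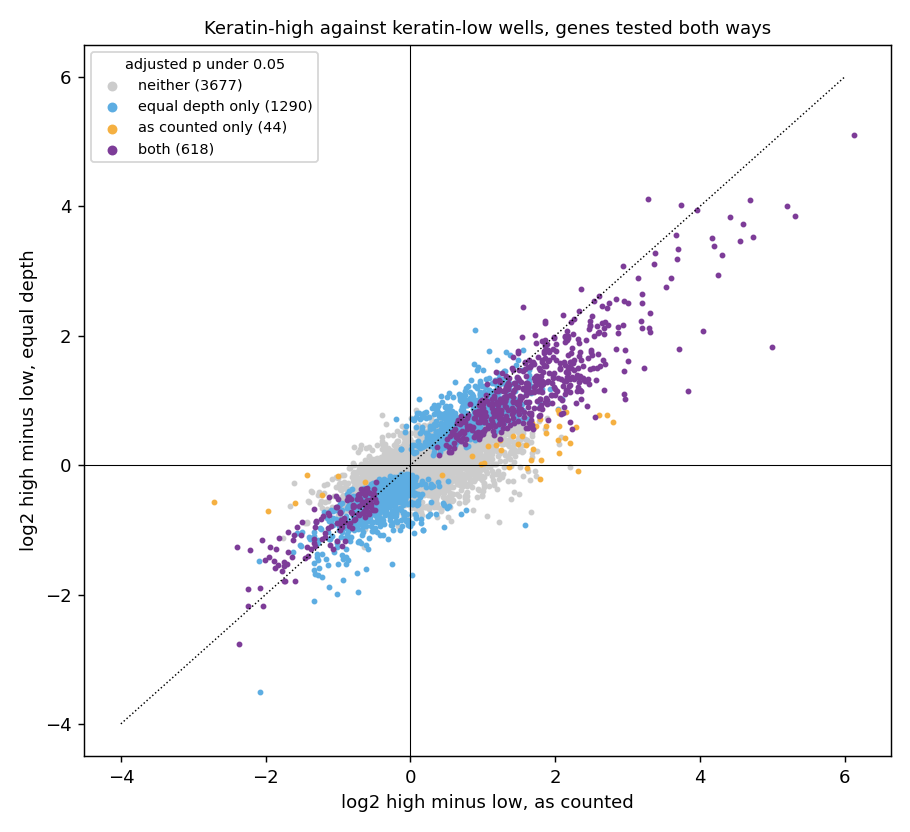
Log2 difference between keratin-high and keratin-low wells as counted (x axis) and at equal depth (y axis); each point is 1 of 5629 genes tested both ways, coloured by where its adjusted p was under 0.05, with a dotted line of equality. The 618 genes called both ways lie in the upper right and lower left, and none changes sign, in fits that share most of their high wells.

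Annexins, S100 proteins and galectins rose together. These are calcium-dependent membrane-binding proteins, their small partners, and sugar-binding proteins of the cell surface. In this list 12 of 12 measured members were higher and 0 lower at equal depth (median log2 difference 1.85), against 12 and 0 of 14 as counted (median 2.05). Only members abundant enough to be tested are in these counts, of 19 in the list. Abundance in the keratin-high sums alone could be enough for this. Dsp and Prss23, given below, were tested although every keratin-low sum held little of them. Counts of higher members, in this and the later lists, thus depend in part on which members could be tested. Anxa2, which binds actin and membrane phospholipid, was at 437 to 1349 CPM (median 772) in the keratin-high sums and 37.0 to 107 CPM (median 57.3) in the keratin-low sums at equal depth. No low sum reached the lowest high sum. The log2 difference was 3.56 ± 0.12 at equal depth (adjusted p = 1.33e-18) and 3.67 ± 0.27 as counted (adjusted p = 1.10e-15). Lgals3, galectin-3, was at 599.9 to 1331 CPM (median 893) in the keratin-high sums and 56.1 to 169 CPM (median 87.7) in the keratin-low sums, with a difference of 3.34 ± 0.11 at equal depth (adjusted p = 1.52e-18) and 3.70 ± 0.24 as counted (adjusted p = 2.35e-17). Anxa1 differed by 4.09 ± 0.18 at equal depth (adjusted p = 5.22e-16) and 4.69 ± 0.35 as counted (adjusted p = 3.32e-15). Lgals1 was abundant in both classes, at 3579 to 6920.0 CPM (median 5221) in the keratin-high sums and 1169 to 1925 CPM (median 1786) in the keratin-low sums, and differed by 1.61 ± 0.06. All 4 genes were higher in 9 of 9 pairs with no overlap. The share of all genes tested that do so is not given. Agreement of pairs and lack of overlap, here and below, thus describe a gene and do not set it apart from the rest. Per well, the list summed to a median of 104 UMIs per 12000 in keratin-high wells, 32 in the wells between and 27 in keratin-low wells. Lgals1, the most abundant of the 4 genes above, is in this sum, and its part was not separated.

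Actin cytoskeleton genes rose as well. In this list 27 of 33 measured members were higher and 1 lower at equal depth (median log2 difference 1.15), against 24 and 0 of 35 as counted (median 1.23). The member that fell at equal depth was Vim, an intermediate filament protein of mesenchymal cells. Tagln, an actin-bundling protein of smooth muscle, was at 266 to 741 CPM (median 485) in the keratin-high sums and 12.2 to 74.0 CPM (median 46.9) in the keratin-low sums, without overlap. Its difference was 3.28 ± 0.18 at equal depth (adjusted p = 4.34e-14) and 3.38 ± 0.36 as counted (adjusted p = 2.51e-10). Tpm1 (tropomyosin, which lies along the actin filament) was at 835 to 1953 CPM (median 1691) in the keratin-high sums and 273 to 465 CPM (median 402) in the keratin-low sums, a difference of 2.00 ± 0.11. Tagln2 differed by 2.00 ± 0.12 and Tpm4 by 1.88 ± 0.12. Gsn, the actin-severing protein gelsolin, was chosen after its values were seen; it was at 38.2 to 161 CPM (median 106) in the keratin-high sums and 2.04 to 12.2 CPM (median 3.82) in the keratin-low sums and differed by 4.03 ± 0.26. Acta1 and the other actins are near-identical in sequence, so the actin counts are uncertain.

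Cell junctions and adhesion followed. In the list of epithelial junctions and desmosomes, 14 of 18 measured members were higher and 0 lower at equal depth (median log2 difference 0.98), against 12 and 0 of 25 as counted (median 1.33). Desmosomes anchor keratin filaments to the cell membrane. Dsp, desmoplakin, which ties keratin to the desmosome, was at 76.4 to 172 CPM (median 114) in the keratin-high sums and 2.04 to 11 CPM (median 7.20) in the keratin-low sums, and its difference was 4.01 ± 0.26 at equal depth (adjusted p = 1.07e-12) and 5.21 ± 0.54 as counted (adjusted p = 1.33e-10). The Dsp groups lay far apart, with the highest low sum under the lowest high sum. Cdh1, E-cadherin, was at 227 to 446 CPM (median 334) in the keratin-high sums and 90.5 to 157 CPM (median 129.6) in the keratin-low sums and differed by 1.38 ± 0.13. Perp, a desmosomal p53 target, differed by 1.15 ± 0.10. Of integrins and tetraspanins, 9 of 9 measured members were higher and 0 lower at equal depth (median log2 difference 1.27), against 9 and 0 of 12 as counted (median 1.39). Cd9 differed by 1.66 ± 0.09, Cd63 by 1.27 ± 0.07, Cd81 by 1.05 ± 0.08 and Itgb1, the common integrin beta chain, by 0.85 ± 0.08.

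Matrix and basement membrane genes were higher too. In the extracellular matrix list, 12 of 16 measured members were higher and 1 lower at equal depth (median log2 difference 1.08), against 13 and 1 of 20 as counted (median 1.41). Thbs1, thrombospondin, was at 78.3 to 225 CPM (median 127) in the keratin-high sums and 3.65 to 20.5 CPM (median 6.37) in the keratin-low sums, with a difference of 3.85 ± 0.26 at equal depth (adjusted p = 2.34e-12) and 5.31 ± 0.55 as counted (adjusted p = 2.01e-10). Col4a1, the basement membrane collagen, was at 75.2 to 395 CPM (median 153) in the keratin-high sums and 4.08 to 35.7 CPM (median 12.3) in the keratin-low sums, a difference of 3.52 ± 0.29 at equal depth (adjusted p = 1.45e-10) and 4.73 ± 0.46 as counted (adjusted p = 2.21e-11). Both genes had groups without overlap. Col4a1 overlaps Col4a2 on the other strand, and the sources used here do not say whether counting used strand. Sparc differed by 1.35 ± 0.08, Fn1 (fibronectin) by 1.60 ± 0.21 and Plaur, the urokinase receptor, by 1.62 ± 0.12. Spp1 was the member that fell. Of YAP and TEAD targets, genes induced by the cell tension and contact pathway, 6 of 7 measured members were higher and 0 lower at equal depth (median log2 difference 1.02), against 7 and 0 of 11 as counted (median 1.88). Ccn1 was at 128 to 348 CPM (median 167) in the keratin-high sums and 35.2 to 79.6 CPM (median 58.6) in the keratin-low sums and differed by 1.62 ± 0.18; Amotl1 differed by 1.02 ± 0.16.

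**Figure D3:**
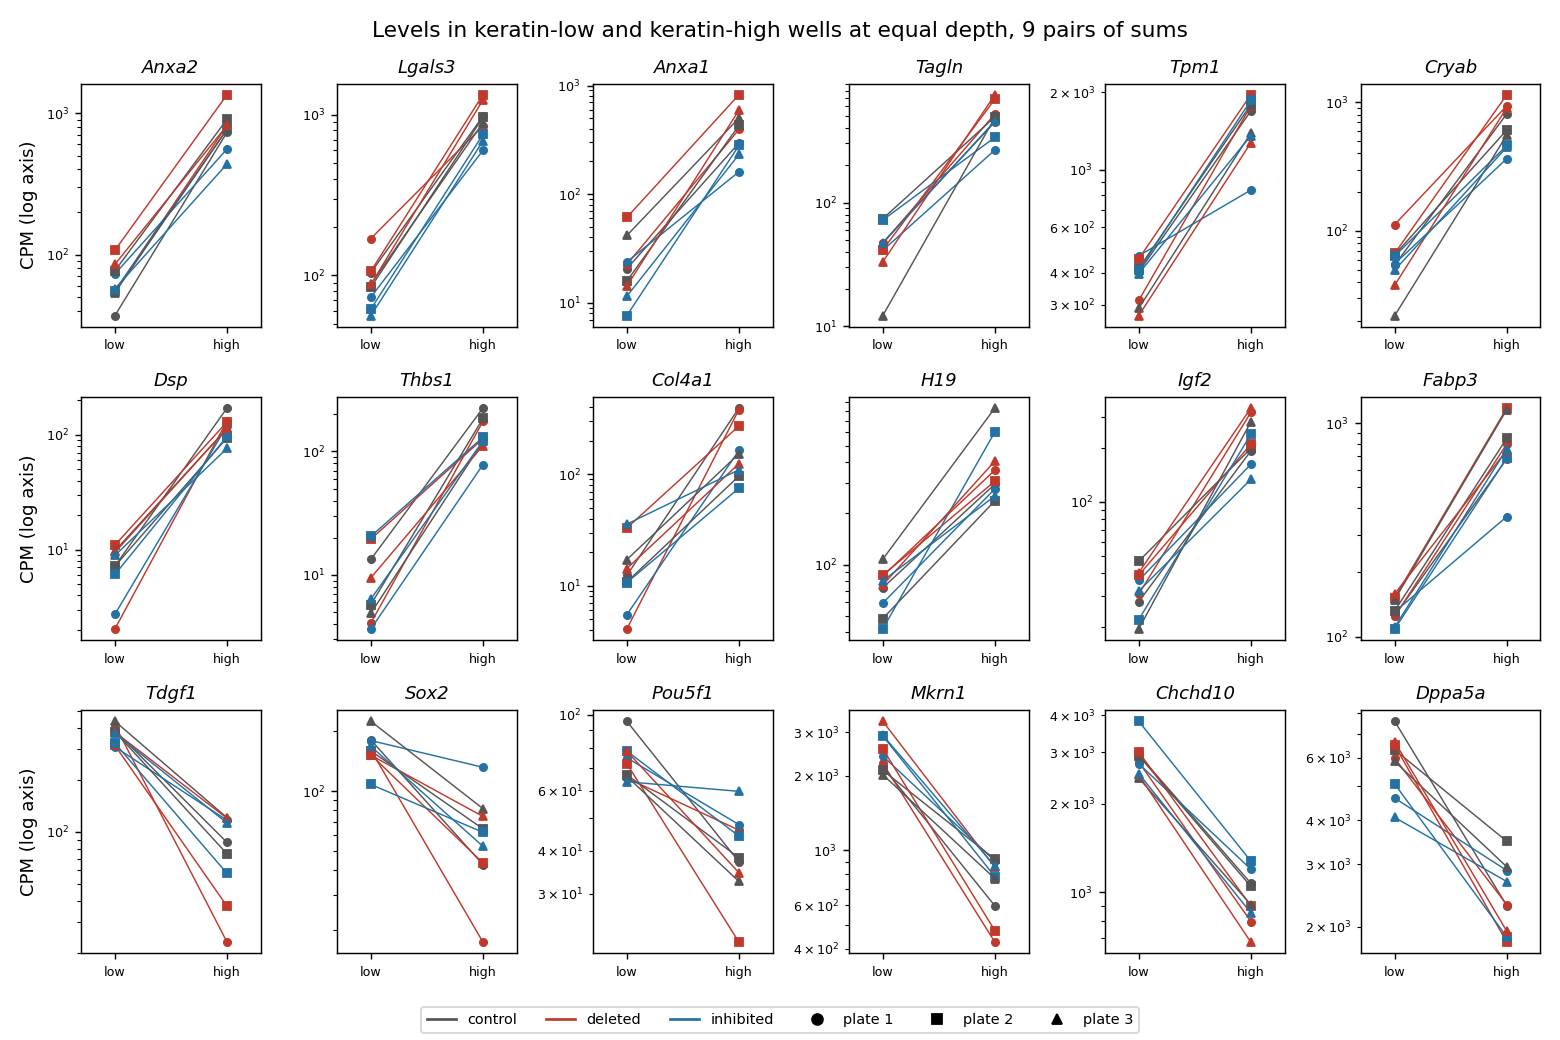
Levels in CPM (y axis, log scale) of 18 genes in the keratin-low and keratin-high sums at equal depth; each line joins the low and high sum of 1 plate and cell type (colour for type, marker for plate). The first 12 genes rise in all 9 pairs and the last 6 (Tdgf1 to Dppa5a) fall in all 9.

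The genes of the trophectoderm, the tissue these keratins are known for, moved in part. In the list 8 of 8 measured members were higher and 0 lower at equal depth (median log2 difference 1.4), against 9 and 0 of 13 as counted (median 1.90), of 24 members. Those that rose at equal depth were Cldn4, Cldn6, Ascl2, Atp1b1, Slc2a3, Id2, Lrp2 and Wnt6. Cldn6, a claudin of tight junctions, was at 104 to 257 CPM (median 186) in the keratin-high sums and 14.7 to 44.5 CPM (median 26.5) in the keratin-low sums, a difference of 2.47 ± 0.20 at equal depth (adjusted p = 1.58e-10) and 2.65 ± 0.36 as counted (adjusted p = 2.51e-07). Lrp2, an endocytic receptor, differed by 1.84 ± 0.16 and Id2, an inhibitor of basic helix-loop-helix factors, by 1.31 ± 0.14. Of 11 trophectoderm markers, 0 were abundant enough to be tested at equal depth. There Cdx2 was at a median of 2.88 CPM in high and 2.44 CPM in low sums, Eomes at 7.97 and 7.60, and Elf5 at 0 in every high sum. Tead4, a transcription factor of the YAP pathway, was at a median of 34.5 against 6.47 CPM and higher in 9 of 9 pairs, and as counted it rose by 2.78 (adjusted p = 0.00312). Wnt7b, a signalling ligand, was at 21.3 against 5.03 CPM, also in 9 of 9 pairs, and rose by 2.91 as counted (adjusted p = 0.0236). Gata3, a transcription factor, was at 19.6 against 7.32 CPM, higher in 6 of 9 pairs, with a difference of 1.62 as counted (adjusted p = 0.105). All 11 trophectoderm markers summed to 114 to 203 CPM (median 139) in high and 31.8 to 118 CPM (median 79.3) in low sums, higher in 9 of 9 pairs. The ranges overlap slightly. The members were not alike. Eomes, Tfap2c, Hand1, Fgfr2 and Bmp4 were each higher in 5 and lower in 4 pairs, Cdx2 was higher in 4, and Gata2 in 6.

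Markers of other cell types were summed in the same way at equal depth. The 9 primitive endoderm markers summed to a median of 248 CPM in high against 64.8 CPM in low sums, higher in 9 of 9 pairs. Most of that sum came from Col4a1 and Lamb1, while Gata6, Gata4, Sox17 and Pdgfra had a median of 0 in the high sums. Wells were uneven. Keratin-high wells held a median of 1 UMI of these markers per 12000, with 38.1% at 0 and a highest of 100. In keratin-low wells the median was 0, with 68.3% at 0. Of the primitive and visceral endoderm list, 4 of 6 measured members were higher and 1, Apoe, was lower. The 7 fibroblast markers summed to 0 to 15.5 CPM in high and 0 to 3.65 CPM in low sums, higher in 6 pairs and lower in 2. Col1a2, Col3a1, Lum and Postn were at 0 in every high sum. In a wider fibroblast and feeder list of 19 genes, only Fn1 and Tagln were abundant enough to be tested, and both were higher. The 2-cell-like markers had a median of 0 in high and 1.52 CPM in low sums. The blood and endothelial markers stood at 6.04 and 7.34 CPM. The 7 pluripotency markers were present in both classes, summing to 189 to 511.6 CPM in high and 719 to 1052 CPM in low sums, lower in 9 of 9 pairs. The members were not alike. Pou5f1, Sox2 and Tdgf1 were lower in 9 of 9 pairs, and Zfp42 in 8, with a difference of -0.38 ± 0.14. Nanog, not tested, was lower in 7 of 9 pairs. Klf4 and Esrrb were lower in 6 of 9 pairs and not called (edgeR adjusted p = 0.273 and 0.229). As counted, Klf4 stood at 0.64 (edgeR adjusted p = 0.611).

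Pluripotency genes fell. Of the core list, 0 of 15 measured members were higher and 13 lower at equal depth (median log2 difference -1.08), against 0 and 8 of 15 as counted (median -1.15). Tdgf1 (Cripto, a Nodal coreceptor) was at 23.0 to 121 CPM (median 86.8) in the keratin-high sums and 309 to 435 CPM (median 377) in the keratin-low sums at equal depth, without overlap, and differed by -2.17 ± 0.17 at equal depth (adjusted p = 4.06e-11) and -2.25 ± 0.32 as counted (adjusted p = 7.86e-07). It was detected in 36.1% of keratin-high wells (95% interval 31 to 41.4) and 83.7% of keratin-low wells (80.7 to 86.4) at 12000 UMIs a well, with exact binomial intervals that cover counting error only. A background share from free RNA was not measured for Tdgf1. Sox2, a core transcription factor, was at 17.3 to 132 CPM (median 61.9) in the keratin-high sums and 108 to 225 CPM (median 161) in the keratin-low sums, and differed by -1.42 ± 0.19 at equal depth (adjusted p = 9.60e-07) and -1.95 ± 0.32 as counted (adjusted p = 9.16e-06). Its ranges overlap at equal depth and do not as counted. Pou5f1 (Oct4) was at 21.7 to 59.7 CPM (median 38.2) in the keratin-high sums and 63.7 to 95.7 CPM (median 71.9) in the keratin-low sums and differed by -0.87 ± 0.20 at equal depth (adjusted p = 0.00116) and -1.50 ± 0.42 as counted (adjusted p = 0.0116). Fgf4, the growth factor that Oct4 and Sox2 activate, was at 6.19 to 54.3 CPM (median 15.3) in the keratin-high sums and 30.8 to 63.2 CPM (median 42.8) in the keratin-low sums and differed by -1.26 ± 0.29 at equal depth (adjusted p = 0.00136) and -2.40 ± 0.49 as counted (adjusted p = 4.30e-04). Of the naive list, 0 of 10 measured members were higher and 4 lower at equal depth (median log2 difference -0.41), against 0 and 2 of 13 as counted (median -0.33). Nr0b1 differed by -2.18 ± 0.28 and Dppa5a, at 1811 to 3484 CPM (median 2309.5) in the keratin-high sums and 4069 to 7593 CPM (median 5969.7) in the keratin-low sums, by -1.25 ± 0.10. Nanog was too low to be tested at equal depth, at 0 to 21.5 CPM (median 6.52) in the keratin-high sums and 6.12 to 49.4 CPM (median 16.6) in the keratin-low sums. Whether the core and naive lists differ was not tested.

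Genes of growth and division fell too, chiefly in the equal-depth fit, where 15.8% of all genes tested were called lower and 18.1% higher. In the Myc and nucleolus list, 0 of 17 measured members were higher and 11 lower at equal depth (median log2 difference -0.48), against 0 and 5 of 19 as counted (median -0.51). Ncl (nucleolin) differed by -0.53 ± 0.06, Npm1 by -0.69 ± 0.05 and Dkc1, a pseudouridine synthase, by -0.98 ± 0.11. Of S phase genes, 0 of 24 measured members were higher and 11 lower at equal depth (median log2 difference -0.45), against 0 and 1 of 25 as counted (median -0.43), with Hells at 238 to 576 CPM (median 377) in the keratin-high sums and 636 to 902 CPM (median 813) in the keratin-low sums. Of genes of G2 and mitosis, 1 of 28 measured members were higher and 11 lower at equal depth (median log2 difference -0.34), against 0 and 0 of 28 as counted (median -0.01). The member that rose was Anln (anillin, an actin-binding protein of the cleavage furrow), which differed by 0.73 ± 0.15. Ect2, an activator of cytokinesis, differed by -0.75 ± 0.15 at equal depth (adjusted p = 3.07e-04) but by 0.70 ± 0.36 as counted (adjusted p = 0.237), so its sign depends on the classing. Of cyclin-dependent kinase inhibitors and p53 targets, 7 of 18 measured members were higher and 1 lower at equal depth (median log2 difference 0.28), against 6 and 0 of 22 as counted (median 0.49). Cdkn1a (p21) was at 214 to 575 CPM (median 323) in the keratin-high sums and 126 to 196 CPM (median 173) in the keratin-low sums and differed by 0.94 ± 0.12. Trp53 itself fell at equal depth.

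**Figure D4:**
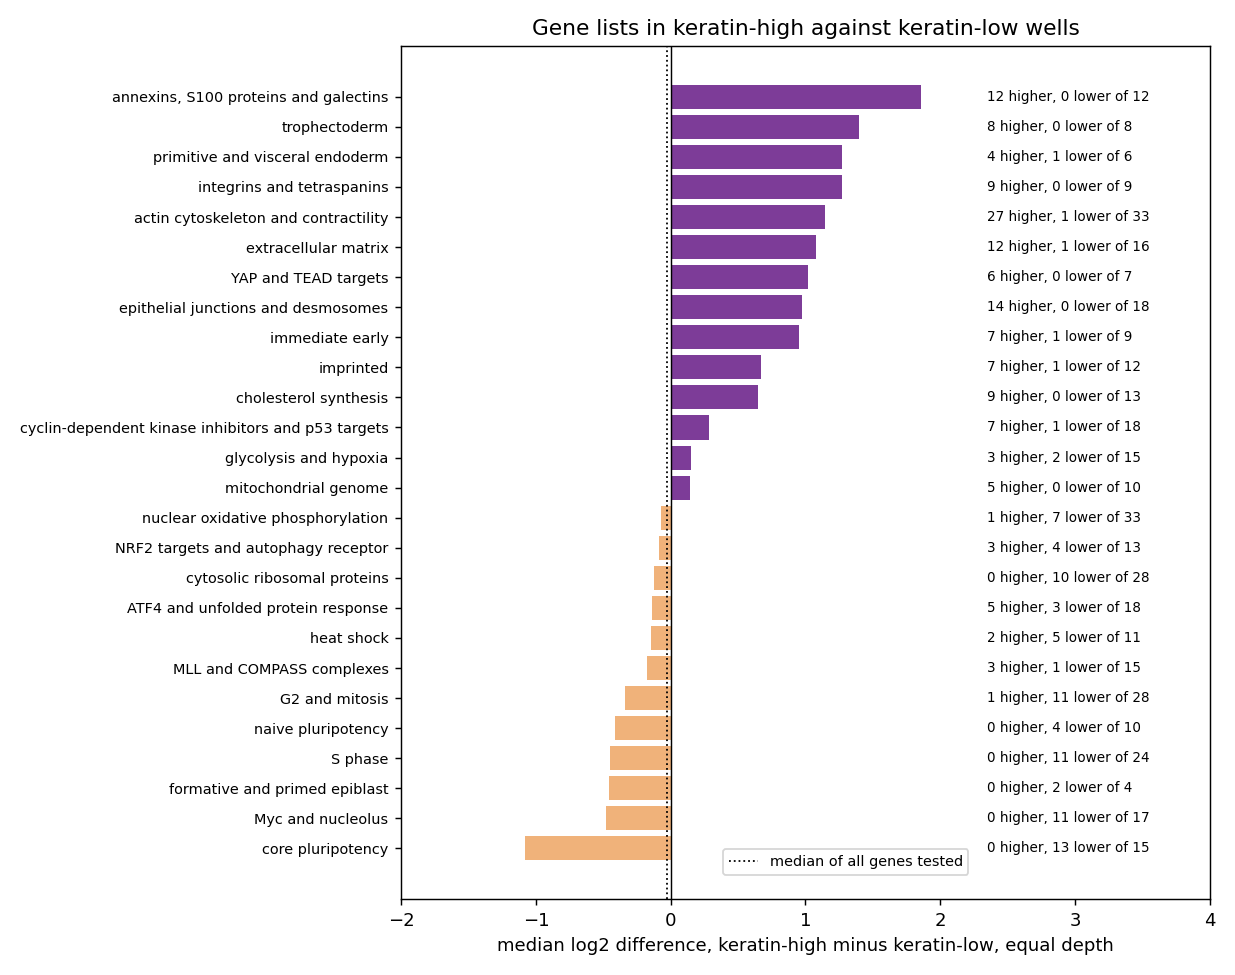
Median log2 difference between keratin-high and keratin-low wells at equal depth (x axis) for the gene lists with at least 4 genes tested (y axis), with the count of genes called in each direction at the right; the dotted line is the median of all 5631 genes. Annexins, S100 proteins and galectins have the highest median (1.85) and core pluripotency the lowest (-1.08).

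By a rule on size and sign in all 9 pairs, the 15 largest rises as counted were Amot, Cyp1a1, Sept4, Prss23, Sh3pxd2a, Upk3bl, Osbpl3, Nr2f2, Thbs1, Emp2, Dsp, Fndc3b, Fermt1, Dsc2 and Mal. Of these, Emp2 and Mal are membrane proteins, Upk3bl is a uroplakin relative, Dsc2 is a desmosomal cadherin and Fermt1 activates integrins. At equal depth 4 of the 15 were abundant enough to be tested (Prss23, Thbs1, Dsp and Fermt1), and the other 11 could not be tested. As counted, a UMI in a low sum stood for 1.48 to 47.5 CPM. A gene at a low level can thus show no UMI in a small low sum while the deeper high sum counts it. For rises, the same sign in all 9 pairs is therefore easily met, and the size depends in part on this floor. Amot, a scaffold that holds YAP at junctions, and Cyp1a1, a target of the aryl hydrocarbon receptor, had no UMI in any low sum as counted. Against a floor of 3 UMIs, and with all pairs pooled, Amot was at least 25.2-fold and Cyp1a1 at least 20.7-fold higher in these counts. Such a bound allows for counting error only, leaves out the pairing and rests on the 95 shallow low wells. At 12000 UMIs a well, Amot had a UMI in 17.6% of keratin-high and 1.78% of keratin-low wells, all pairs pooled. Over the 9 pairs these shares were 8.51 to 26.5% and 0 to 5.63%. Cyp1a1 had a UMI in 9.97% of keratin-high and 0.296% of keratin-low wells, and in 5 to 20.7% and 0 to 2.70% over the pairs. Prss23, a serine protease, was at 28.7 to 154 CPM (median 68.4) in the keratin-high sums and 0 to 4.74 CPM (median 2.04) in the keratin-low sums at equal depth, with a difference of 5.10 ± 0.35 at equal depth (adjusted p = 4.70e-12) and 6.13 ± 0.77 as counted (adjusted p = 3.86e-08). It overlaps Prss23os on the other strand. Nr2f2, a nuclear receptor, was at 4.03 to 39.0 CPM (median 15.5) in the keratin-high sums and 0 to 2.37 CPM (median 0.718) in the keratin-low sums, too low in total to be tested at equal depth. At 12000 UMIs, Prss23 was seen in 28.4% of keratin-high and 1.33% of keratin-low wells, and in 16.2 to 44.8% and 0 to 2.94% over the pairs. Fermt1 differed by 1.83 ± 0.34 at equal depth, where its groups overlapped, and by 5.00 ± 0.82 as counted, where they did not.

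By the same rule (past the threshold, the same sign in all 9 pairs as counted and a mean of at least 10 CPM) the 15 largest falls were Fgf4, Sox2, Spry2, Mkrn1, Chchd10, 1190005I06Rik, Arl4a, Tdh, Gsta4, Pou5f1, Hmces, L1td1, Gar1, Hmga1b and Lyar. Tdgf1 and Nr0b1, lower in 8 of 9 pairs as counted, fall outside it. Mkrn1, a ubiquitin ligase, was at 426 to 919.8 CPM (median 783) in the keratin-high sums and 2020.1 to 3319 CPM (median 2403) in the keratin-low sums at equal depth, without overlap. Its difference was -1.79 ± 0.09 at equal depth (adjusted p = 1.81e-14) and -1.75 ± 0.18 as counted (adjusted p = 1.37e-10). Chchd10, a mitochondrial intermembrane protein, was at 678 to 1278 CPM (median 909) in the keratin-high sums and 2448 to 3817 CPM (median 2777) in the keratin-low sums and differed by -1.56 ± 0.06 at equal depth (adjusted p = 7.17e-17) and -1.75 ± 0.15 as counted (adjusted p = 9.92e-13). Tdh, the threonine dehydrogenase on which mouse embryonic stem cells depend, was at 47.8 to 115 CPM (median 69.0) in the keratin-high sums and 177 to 257 CPM (median 201) in the keratin-low sums and differed by -1.42 ± 0.14. L1td1, an RNA-binding protein of pluripotent cells, differed by -1.29 ± 0.09, and Spry2, a feedback inhibitor of growth factor signalling, by -1.12 ± 0.27. All 15 were lower at equal depth too, from -0.49 ± 0.11 for Hmga1b to -1.79 ± 0.09 for Mkrn1. Hmga1b is a near copy of Hmga1, and its counts are uncertain.

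Some further genes were chosen after their values were seen. Cryab (alpha B-crystallin, a small heat shock protein that binds intermediate filaments) was at 365 to 1145 CPM (median 609.9) in the keratin-high sums and 22.0 to 112 CPM (median 55.7) in the keratin-low sums and differed by 3.47 ± 0.15 at equal depth (adjusted p = 2.78e-16) and 4.56 ± 0.32 as counted (adjusted p = 2.70e-16). It overlaps Hspb2, which moved with it, on the other strand, and the pair cannot be told apart if strand was not used. Fabp3, a fatty acid binding protein, was at 365 to 1176 CPM (median 757) in the keratin-high sums and 109 to 159 CPM (median 131) in the keratin-low sums and differed by 2.54 ± 0.11. Mylpf, a myosin light chain of fast muscle, went the other way, at 136 to 510.1 CPM (median 299.8) in the keratin-high sums and 769 to 1093 CPM (median 891) in the keratin-low sums, a difference of -1.59 ± 0.12. Tinagl1, a matricellular protein, differed by 3.39 ± 0.38.

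Imprinted genes, expressed from 1 parental copy, included further rises. Of them, 7 of 12 measured members were higher and 1 lower at equal depth (median log2 difference 0.67), against 6 and 0 of 16 as counted (median 0.85), the faller being Grb10. H19, a non-coding RNA, was at 238 to 834 CPM (median 309) in the keratin-high sums and 41.8 to 108 CPM (median 75.9) in the keratin-low sums, and the neighbouring Igf2, a growth factor, at 134 to 335 CPM (median 210.5) in the keratin-high sums and 19.6 to 46.7 CPM (median 31.9) in the keratin-low sums. Both were higher in 9 of 9 pairs without overlap, by 2.38 ± 0.16 and 2.73 ± 0.18.

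Levels were also followed along the range of keratin counts. Wells were grouped by Krt8 plus Krt18 UMIs per 12000, from 676 wells at 0 to 275 wells at 32 or more, and levels are means ± SD of 3 plates. Anxa2 stood at 62 ± 10.5 CPM at 0 keratin UMIs, 73.5 ± 7.39 at 2 to 3, 179 ± 21.0 at 8 to 15 and 831 ± 172 at 32 or more. Lgals3 went from 80.9 ± 13.8 through 304 ± 53.5 at 8 to 15 to 976 ± 63.3 CPM. Below 4 keratin UMIs these levels differed little, and above it they climbed with each group. Tdgf1 went down from 345 ± 22.9 at 0 through 270.1 ± 41.1 at 4 to 7 to 74.4 ± 21.3 CPM at 32 or more. Sox2 was at 156 ± 19.9 and 49.3 ± 12.3 CPM at the ends, and Pou5f1 at 69.9 ± 5.18 and 32.8 ± 3.60. Pou5f1 stayed between 53.2 and 61.4 CPM from 1 to 31 keratin UMIs. Cdx2 did not follow, at 4.94 ± 3.69 and 3.41 ± 2.09 CPM. Cell types were pooled within each plate here, unlike in the class comparisons. Deleted cells made up 152 of the 676 wells at 0 and 110 of the 275 at 32 or more. The part of this changing mix in the levels was not tested. These groups were cut from the same score and are a description.

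**Figure D5:**
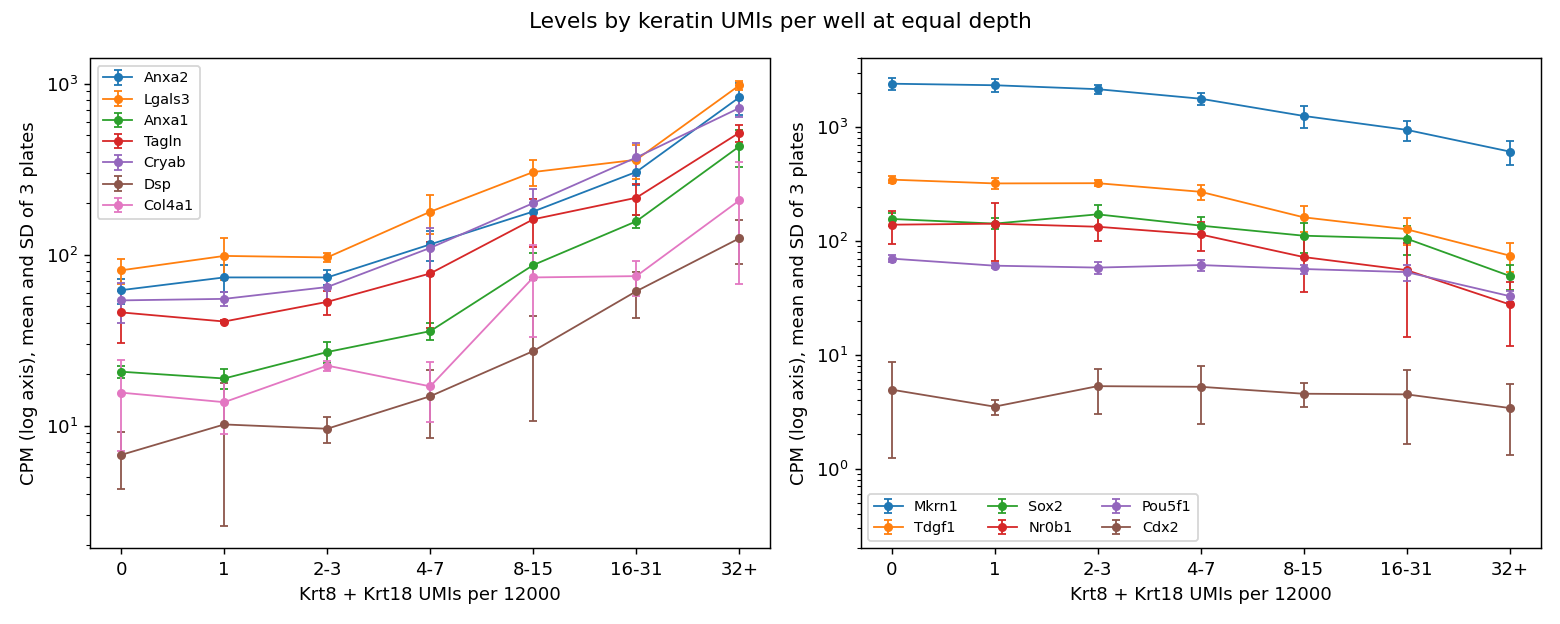
Mean level in CPM (y axis, log scale; bars are SD of 3 plates) of genes that rose (left) and of pluripotency genes, Mkrn1 and Cdx2 (right) in wells grouped by Krt8 plus Krt18 UMIs per 12000 (x axis). Anxa2 goes from 62 to 831 CPM and Tdgf1 from 345 to 74.4 CPM across the groups, while Cdx2 stays under 6 CPM.

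Genes were called in each cell type alone. As counted, 190 genes (2.39%) were called in control, 273 (3.44%) in deleted and 92 (1.16%) in inhibited cells, of 7947. At equal depth it was 800 (14.2%), 959 (17%) and 606 (10.8%) of 5631. As counted the median gene stood at 0.17 in control, 0.59 in deleted and 0.14 in inhibited cells on the log2 scale. At equal depth it stood at -0.03, -0.02 and -0.02. Deleted cells gave low classes of only 3, 7 and 1 wells as counted, and 243 of their 273 calls were higher. The as-counted numbers therefore do not rank the types. Kmt2a was measured in all classes and types, at equal depth means of 91.1 CPM in high and 45.3 CPM in low control sums, 78.8 and 51.9 CPM in deleted sums, and 95.6 and 49.3 CPM in inhibited sums. Since the deleted exons are not named, a count of Kmt2a does not check the deletion. In keratin-high against keratin-low wells of all types Kmt2a differed by 0.72 ± 0.25 at equal depth (adjusted p = 0.0254) and by 0.76 ± 0.44 as counted (adjusted p = 0.309). Anxa2 differed by 3.86 ± 0.19 in control, 3.60 ± 0.19 in deleted and 3.24 ± 0.18 in inhibited cells at equal depth. For Tdgf1 it was -2.12 ± 0.26 in control, -2.70 ± 0.30 in deleted and -1.83 ± 0.26 in inhibited cells, and for Dsp 3.96 ± 0.45 in control, 4.01 ± 0.48 in deleted and 4.06 ± 0.46 in inhibited cells. The 3 types thus gave differences of one sign for these genes.

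Whether the types differ was tested as class-by-type interactions. For deletion and for inhibition against control, 0 and 0 genes passed by edgeR as counted and at equal depth (0% each), and 0 and 0 by DESeq2 as counted. As counted, 481 and 241 of 7947 genes had an unadjusted p under 0.05 for deletion and for inhibition by edgeR and 479 and 399 by DESeq2; at equal depth it was 305 and 229 of 5631 by edgeR. Without plate 1, 1 gene passed as counted for inhibition, Gm26707 (chosen after its values were seen), lower by 7.24 ± 1.52 on the log2 scale (adjusted p = 0.0158), against an adjusted p of 1 with all plates. Some other settings also gave single calls: 1 for deletion with at least 20000 UMIs a well, and, with thinning and classing again, 1 for inhibition without plate 2, 1 for deletion with Krt8 alone as the score, and 1 for deletion and 3 for inhibition without the low-count filter. For Anxa2 the interaction was -0.26 ± 0.27 for deletion (adjusted p = 0.966) and -0.63 ± 0.27 for inhibition (adjusted p = 0.998). For Tdgf1 it was -0.58 ± 0.41 for deletion (adjusted p = 0.966) and 0.29 ± 0.38 for inhibition (adjusted p = 0.998). An adjusted p that misses the threshold does not show that the types responded alike.

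Mitochondrial RNA was compared by well and by gene. As counted, the median mitochondrial share was 3.06 to 3.89% in high and 2.55 to 4.34% in low classes, a mean difference of 0.235 ± 0.486 percentage points (SD over 9 pairs; exact two-sided sign permutation p = 0.191). It was higher in 8 of 9 pairs as counted and in 4 of 9 at equal depth, where the mean difference was -0.0608 (exact permutation p = 0.504). Without plate 1 the as-counted difference was 0.396 in 6 of 6 pairs (exact permutation p = 0.0313, the smallest that 6 pairs allow). Of genes of the mitochondrial genome, 5 of 10 measured members were higher and 0 lower at equal depth (median log2 difference 0.15), against 4 and 0 of 11 as counted (median 0.37). Of them mt-Rnr2, a ribosomal RNA, differed by 0.44 ± 0.06 at equal depth (adjusted p = 1.85e-06) and 0.63 ± 0.14 as counted (adjusted p = 8.68e-04). Genes detected at 12000 UMIs were 145 ± 134 more in the high class as counted, in 8 of 9 pairs (exact permutation p = 0.0195; 0.0938 without plate 1 or without plate 2). At equal depth the difference was 51.4 ± 76.3, in 7 of 9 pairs (exact permutation p = 0.0742). The smallest p that 9 pairs allow is 0.00391. Doublets were not called, and the fit without the deepest 5% of wells gave 765 calls as counted. Markers and depth move with the classes as given above, and their part in the differences was not tested.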

How the data were processed

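Single-cell UMI counts were deposited as tables of counts per gene and well for 3 plates, which the authors made with STAR 2.5.2b and featureCounts of Subread 1.4.6-p1 on mm10, per the submitters' processing notes. The sources used here do not say whether counting used strand. Gene names came from GENCODE M21, promoter windows from RefSeq GRCm38.p6. Counts of 4640 wells matched the totals of the deposited reports; 4610 were of the 3 types, 4413 had at least 1000 genes and under 20% mitochondrial UMIs, and 3368 had at least 12000 gene UMIs. High and low sums of a plate and type are paired by construction, which the plate reports give. Of 3260 well codes, 1040 occur on more than 1 plate.

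Sums per plate, type and class (12751 to 4920213 UMIs in tested genes; 1 UMI is 0.213 to 47.5 CPM) were fitted with edgeR 4.0.16 (R 4.3.3; filterByExpr, TMM, glmQLFit and glmQLFTest) with plate-by-type as the block, and p-values were adjusted by Benjamini-Hochberg at 0.05. The repeat thinned each well to 12000 UMIs (seed 1) and classed again. DESeq2 1.42.0, other scores, filters, depths and left-out plates were alternatives. No doublet caller was run. Genes named were keratins, the 15 largest rises and 15 largest falls as counted (past 0.05, same sign in 9 pairs, mean of at least 10 CPM), up to 4 members of each list with the smallest p, and others marked in the text. The members and gene lists were chosen with earlier results of these data known.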

Additional observations from a re-analysis of the deposited data

Results flagged for a closer look

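Of 41 sets of 9 pair values looked at, 2 had a pair far from the other 8, and chance alone does this in about 5% of sets. The mitochondrial share of keratin-high minus keratin-low wells as counted was -1.003 percentage points in deleted cells of plate 1, where the other pairs lay between 0.098 and 0.54. That low class holds 3 wells. The log2 ratio of Fabp3 at equal depth was 1.476 in inhibited cells of plate 1, where the others lay between 2.226 and 2.947. In that pair Fabp3 was still higher in the keratin-high sum.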

How the results depend on the processing

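The number of calls moved with the classing, the score and the tool; the causes were not tested. Over all types (837 as counted), DESeq2 gave 1352, thinning the same wells 532, thinning and classing again 1910, a minimum of 20000 UMIs 536, all wells between as the low class 3068, a score on Krt8 alone 2655 and on Krt18 alone 1381, and leaving out a plate 367 to 594. In control cells (190) the same settings gave 367, 114, 800, 99, 902, 787 and 314, a top 20% gave 121, leaving out pairs with under 5 low wells 114, and leaving out a plate 57 to 137. In deleted cells (273), thinning and classing again gave 959, 20000 UMIs 125, wells between 1160, Krt8 1209, Krt18 521, leaving out pairs with under 5 low wells 68, leaving out the plate 3 pair 152, and leaving out a plate 84 to 243. In inhibited cells (92), DESeq2 gave 173, thinning and classing again 606, 20000 UMIs 58, wells between 561, Krt8 476, leaving out pairs with under 5 low wells 141, and leaving out a plate 14 to 64. The inhibition interaction ranged over 0 to 1 gene without a plate. At equal depth, leaving out a plate gave 1301 to 1576 of the 1910.

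Without the replicate block, 938 genes were called over all types as counted, 224 in control, 374 in deleted and 108 in inhibited cells, and 1721 at equal depth. As counted it raised the lower calls from 142 to 230 over all types and from 30 to 72 in deleted cells, and the interactions with an unadjusted p under 0.05 from 481 to 791 for deletion and from 241 to 441 for inhibition. Of 5629 genes, 4375 had the same sign as counted and at equal depth. Of the genes chosen for naming, 4 turned sign under an alternative: Laptm5 (-0.60 to 0.80 without a plate, above 0 without plate 2), Stra8 (-1.72 to 0.41, above 0 without plate 1), Meis1 (-0.64 to 0.18, above 0 without plate 3) and Ect2 (-0.75 at equal depth). The mitochondrial difference was -0.0608 at equal depth, and 0.115 to 0.396 without a plate. The difference in detected genes was 51.4 at equal depth and 137 to 160 without a plate. Settings that leave out the smallest pairs, and those that join thinning with another choice, were chosen after seeing the data. Depth of the as-counted low sums, from 12751 UMIs, limits calls of low genes.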

Other observations

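The lists that follow are to be read against 18.1% of all genes called higher and 15.8% called lower at equal depth (8.75 and 1.79% as counted). Of cholesterol synthesis genes, 9 of 13 measured members were higher and 0 lower at equal depth (median log2 difference 0.65), against 4 and 0 of 19 as counted (median 0.96). Of immediate early genes, 7 of 9 measured members were higher and 1 lower at equal depth (median log2 difference 0.95), against 6 and 0 of 17 as counted (median 1.29), with Fos, an AP-1 subunit, 2.82-fold higher and Ier2 falling. Of heat shock genes, 2 of 11 measured members were higher and 5 lower at equal depth (median log2 difference -0.15), against 3 and 2 of 14 as counted (median -0.03). Those that rose were the small heat shock genes Hspb1 and Cryab, and those that fell were Hsph1, Hsp90aa1, Hsp90ab1, Hspe1 and Hspd1, chaperones of the cytosol and mitochondria. Of cytosolic ribosomal protein genes, 0 of 28 measured members were higher and 10 lower at equal depth (median log2 difference -0.12), against 0 and 0 of 29 as counted (median -0.10). Of nuclear genes of oxidative phosphorylation, 1 of 33 measured members were higher and 7 lower at equal depth (median log2 difference -0.07), against 0 and 1 of 33 as counted (median -0.06). Of genes of the MLL and COMPASS complexes, 3 of 15 measured members were higher and 1 lower at equal depth (median log2 difference -0.18), against 3 and 1 of 20 as counted (median 0.21), the rises being Kmt2a, Kmt2e and Men1 and the fall Dpy30.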
